A study of Mus musculus with 6 samples.

Results

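The genes described here are 38 named genes of glycolysis and of the low-oxygen response, all 38 of them found among the 17582 rows of the deposited table. They comprise 16 glycolytic enzymes and 22 other low-oxygen genes, namely 6 carriers and regulators of glycolysis and 16 further genes of the response. The list was selected on measured values of these libraries: Ndrg1 had been among the genes with the smallest p when knockout was compared with control. The difference between genotypes is therefore described for these genes and not tested.

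Glycolysis splits glucose into pyruvate, and lactate dehydrogenase turns the pyruvate into lactate when the cell does not oxidise it. Many of these enzymes belong to the low-oxygen programme of the hypoxia-inducible factors. Egln enzymes use oxygen to mark the factor's alpha subunits for destruction, so in low oxygen the subunits persist, pair with Arnt and bind short DNA motifs near their target genes. The alpha subunits are set largely at the protein level, which RNA does not report. In the tooth, ameloblasts and odontoblasts secrete matrix at a high rate, and the enamel epithelium itself holds few vessels and draws on those outside it.

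RNA was sequenced (mRNA enriched, BGISEQ-500 platform) from the first mandibular molar of C57BL/6 mice at postnatal day 4. The knockout group (n = 3) carried K14-Cre, which drives the recombinase from a keratin promoter of epithelial cells, with Wnt10aflox/flox. The control group (n = 3) carried Wnt10aflox/flox without the Cre. Both groups thus had the floxed alleles, and no group carried the Cre alone. Whole molars hold epithelium and mesenchyme, so the values do not separate the compartments, and in such bulk samples fewer cells of a type and less RNA per cell cannot be told apart. The labels do not say whether a library came from 1 animal or several, and any p-value measures only the spread between these libraries.

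Values are FPKM, fragment counts adjusted for transcript length and library size, so levels can be compared between genes. Differences are given on the log2(FPKM + 1) scale, knockout minus control, with the standard error (SE) of a limma-trend fit over 11934 genes. The libraries held an estimated 17950000 to 18530000 reads. Wnt10a, the targeted gene, was at 19.39, 19.94 and 18.07 FPKM in knockouts 1, 2 and 3, against 33.61, 36.59 and 31.68 FPKM in controls 1, 2 and 3 (limma adjusted p = 0.00609). The enamel matrix gene Amelx reached 166874 to 201392 FPKM in knockout molars and 168869 to 199931 FPKM in control molars, and the dentin gene Dspp 614.78 to 853.08 and 715.15 to 837.92 FPKM, so the defining genes of enamel and dentin were present in all libraries. Libraries differed in markers of neighbouring tissues. The summed FPKM of 10 skeletal muscle markers was 16.6, 18.0 and 87.2 in knockouts 1, 2 and 3, against 83.5, 9.69 and 61.4 in controls 1, 2 and 3. That of 3 oral mucosa keratins was 145 in control 1 and at most 3.93 in the other libraries. That of 4 osteoclast markers was 53.1 to 70.7 in knockout molars and 75.7 to 78.4 in control molars. Within lists whose sums overlapped between genotypes, single markers lay apart. The bone matrix gene Ibsp was at 41.78 to 46.02 FPKM in knockout molars and 58.07 to 67.02 FPKM in control molars (-0.48, SE 0.07), the mesenchymal factor Msx1 at 30.05 to 33.24 and 35.54 to 37.65 FPKM (-0.23, SE 0.07), and the epithelial adhesion gene Epcam at 13.95 to 19.09 and 10.18 to 13.74 FPKM (0.43, SE 0.13). The bone gene Spp1 had a difference of -0.64 (SE 0.19) with overlap. Others of the same lists stood otherwise: the keratin Krt15 was at -0.39 (SE 0.17) and the bone gene Bglap at 0.14 (SE 0.11). Msx2 had a mean of 84.0 FPKM in both genotypes. Below 0 were 2 of 5 epithelial, 3 of 4 bone and 3 of 4 mesenchymal markers. These markers were named after their values were seen. No marker of these lists was at 0 in all libraries, and the part of these tissues in the differences below was not tested.

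The core motif of the hypoxia-inducible factors is ACGTG or GCGTG, read on either strand. It was searched in the 250 bases before the RefSeq start (build GRCm38.p6, the most upstream start of each gene), which the sequence table held for 33 of the 38 genes. No window was held for Ndrg1, Ndufa4l2, Bnip3l, Epas1 and Slc2a3, so the motif counts leave these genes out. ACGTG or its reverse complement CACGT was present for 15 of 33, or 45.5%, against 21.8% of the 9573 tested genes with a window. By group it was 5 of 16 enzymes (31.2%) and 10 of 17 other genes (58.8%). GCGTG or its reverse complement CACGC was present for 16 of 33 (48.5%), against 46.6% of tested genes. Both motifs hold a CpG, and the median GC content was 59.6% for the 33 and 60.4% for the tested genes. Overlapping matches were counted once, and a match is a run of letters, not a bound site. The 5 windows below are shown because 3 belong to genes with lower means in the knockout (Bnip3, Ldha, Slc16a3), 1 to a gene with a higher mean (Hk2) and 1 to an enzyme with near-equal means (Pgk1), and all hold the motif. Capitals mark ACGTG or CACGT. Bnip3 is shown from chr7:138909507-138909756 on the minus strand, Ldha from chr7:46845554-46845803 on the plus strand, Slc16a3 from chr11:120948817-120949066 on the plus strand, Hk2 from chr6:82774455-82774704 on the minus strand and Pgk1 from chrX:106186850-106187099 on the plus strand.
Bnip3: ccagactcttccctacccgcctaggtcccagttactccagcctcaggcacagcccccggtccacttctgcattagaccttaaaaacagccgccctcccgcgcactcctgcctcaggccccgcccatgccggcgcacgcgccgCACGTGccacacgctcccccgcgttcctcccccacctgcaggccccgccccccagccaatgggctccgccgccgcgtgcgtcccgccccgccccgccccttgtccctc
Ldha: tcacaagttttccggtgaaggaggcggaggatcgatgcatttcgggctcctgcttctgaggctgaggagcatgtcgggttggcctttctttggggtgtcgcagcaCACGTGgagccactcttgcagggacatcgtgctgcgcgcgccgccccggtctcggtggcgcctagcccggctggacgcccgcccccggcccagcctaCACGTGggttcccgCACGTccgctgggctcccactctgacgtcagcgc
Slc16a3: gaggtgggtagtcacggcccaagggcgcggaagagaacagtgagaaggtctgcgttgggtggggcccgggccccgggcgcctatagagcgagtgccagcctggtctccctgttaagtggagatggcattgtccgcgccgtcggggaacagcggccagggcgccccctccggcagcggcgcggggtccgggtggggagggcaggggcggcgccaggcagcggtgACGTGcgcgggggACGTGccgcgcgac
Hk2: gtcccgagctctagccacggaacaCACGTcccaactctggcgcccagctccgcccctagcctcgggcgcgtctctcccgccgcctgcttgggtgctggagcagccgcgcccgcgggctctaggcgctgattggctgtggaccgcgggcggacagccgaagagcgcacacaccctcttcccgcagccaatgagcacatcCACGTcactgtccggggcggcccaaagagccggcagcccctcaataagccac
Pgk1: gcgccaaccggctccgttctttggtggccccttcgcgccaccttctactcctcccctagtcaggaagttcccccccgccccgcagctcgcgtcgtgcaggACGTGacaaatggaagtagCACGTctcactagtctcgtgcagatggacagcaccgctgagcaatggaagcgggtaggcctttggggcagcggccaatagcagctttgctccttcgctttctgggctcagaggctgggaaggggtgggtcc

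GENCODE M21 (mm10) begins Slc16a3 at 120948480 and Ldha at 46841475, upstream of these windows, so both windows lie within the gene as annotated there. In Bnip3 the palindrome CACGTG stands as 1 match. Ldha has 3 separate matches, of which 2 are CACGTG, and the nearest begins 34 bases before the start. Slc16a3 has 2 matches, beginning 27 and 14 bases before the start. The Hk2 and Pgk1 windows hold 2 matches each, in Hk2 beginning 226 and 52 bases before the start. Of the 5 most abundant enzymes, the windows of Aldoa and Pkm held neither motif, Gapdh had 2 and Eno1 had 1 match to GCGTG with none to ACGTG, and Pgam1 had 1 match to ACGTG and 2 to GCGTG.

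**Figure D1:**
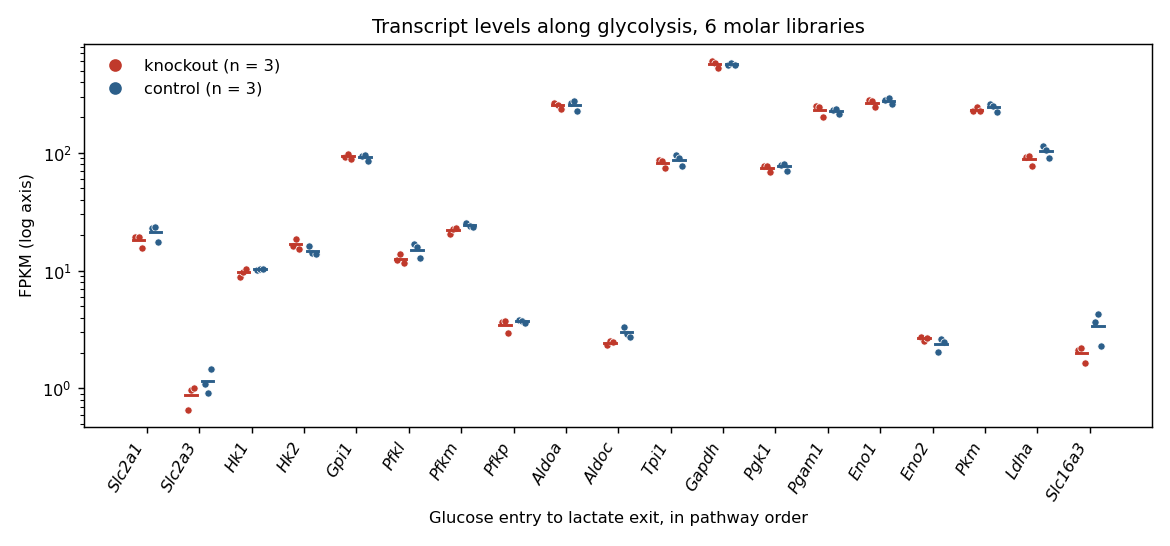
FPKM (log axis) of the glycolytic enzymes and their glucose and lactate carriers in pathway order. Each point is a library and each line a group mean, knockout in red and control in blue; Gapdh is highest at 526 to 599 FPKM and Slc2a3 lowest at 0.66 to 1.46 FPKM.

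Levels differed widely along the pathway. Gapdh, which oxidises glyceraldehyde phosphate, was the most abundant gene of the list, with 598.66, 579.52 and 525.71 FPKM in knockouts 1, 2 and 3 and 561.88, 581.91 and 561.64 FPKM in controls 1, 2 and 3. The next tier held the enolase Eno1, the aldolase Aldoa, the pyruvate kinase gene Pkm and the mutase Pgam1, with means over the 6 libraries of 272, 255, 238 and 229 FPKM. Eno1 was at 280.40, 273.30 and 246.07 FPKM in the knockouts and 283.68, 291.49 and 258.75 FPKM in the controls, Aldoa at 267.77, 254.32 and 237.60 against 265.65, 275.40 and 228.29 FPKM, and Pkm at 224.86, 247.13 and 224.82 against 259.53, 251.83 and 220.41 FPKM. The ranges of neighbours in this tier overlapped, although Eno1 exceeded Aldoa, and Aldoa exceeded Pkm, in 6 of 6 libraries. Ldha, the isomerase genes Gpi1 and Tpi1, and the kinase Pgk1 formed a lower tier with means of 96.0, 92.7, 84.9 and 75.4 FPKM. No library reached, for these 4 genes, the lowest value of the tier above, 200.06 FPKM of Pgam1 in knockout 3. The steps that commit glucose to the pathway were lower: the phosphofructokinase genes Pfkm, Pfkl and Pfkp averaged 23.1, 13.9 and 3.59 FPKM, and the hexokinase genes Hk2 and Hk1 15.7 and 9.97 FPKM. Aldoc and Eno2, the brain-type aldolase and enolase, averaged 2.72 and 2.52 FPKM.

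One isozyme carried most of the transcript at several steps, and at others it was shared. Aldoa made up 98.8% to 99.1% of summed aldolase FPKM over the 6 libraries, Eno1 95.5% to 96.9% of enolase, and Pgam1 96.8% to 97.6% of phosphoglycerate mutase. The muscle isozymes, Eno3 at 6.85 to 9.94 FPKM, and Pgam2, at 4.92 to 7.17 FPKM, were minor at their steps. Hk2, the inducible hexokinase, took 63.6%, 64.8% and 58.8% of hexokinase FPKM in knockouts 1, 2 and 3, against 60.9%, 57.0% and 56.8% in controls 1, 2 and 3. Pfkm, the muscle-type phosphofructokinase, was the larger part of its family in all libraries, at 54.9% to 61.3%. It took 56.0%, 56.3% and 61.3% in knockouts 1, 2 and 3, against 55.3%, 54.9% and 58.9% in controls 1, 2 and 3. The muscle sums were 16.6, 18.0 and 87.2 FPKM in these knockouts and 83.5, 9.69 and 61.4 FPKM in these controls. The part of muscle transcript in the share was not tested. Among the Pfkfb genes, Pfkfb3 took 21.7% to 23.95% in knockout molars and 25.1% to 27.6% in control molars, and Pfkfb4 28.5% to 34.2% and 23.7% to 27.0%, so that the shares of both lay apart between genotypes in opposite directions. Shares within a family are tied, since a lower share of a gene raises those of the others. The FPKM of Pfkfb4 itself overlapped, at 3.89 to 5.25 in knockout molars and 3.38 to 4.08 in control molars. Hif1a took 52.3% to 60.2% of the alpha-subunit FPKM and Epas1 38.2% to 46.4%, with Hif3a at 1.23% to 1.56%.

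**Figure D2:**
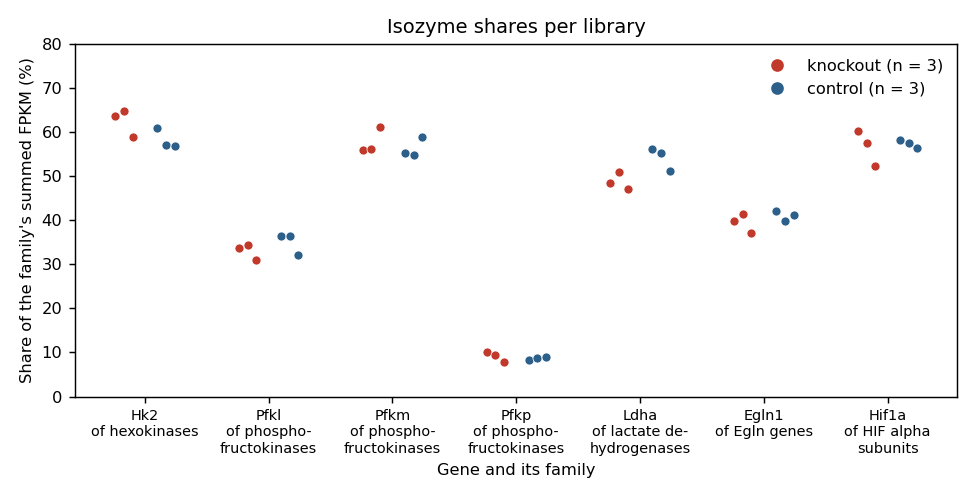
Share (%) of each named gene in the summed FPKM of its family, 1 point per library, knockout in red and control in blue. The Ldha share is 47.0% to 51.0% in knockout molars and 51.2% to 56.2% in control molars, while the other 6 shares shown overlap between groups.

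Most of the 16 enzymes had close means in the 2 genotypes. Their differences lay between -0.24 and 0.17, with 12 of 16 below 0 and a median of -0.06, beside 51.8% below 0 and a median of -0.005 over all tested genes. Gapdh averaged 568 ± 37.8 FPKM in knockout molars and 568.5 ± 11.6 FPKM in control molars, a difference of -0.003 (SE 0.07). Aldoa, Pgam1 and Gpi1 had differences of -0.02, 0.02 and 0.02, each smaller than its SE, and so had Eno1 at -0.06 (SE 0.08), Pkm at -0.07 (SE 0.08), Pgk1 at -0.05 (SE 0.08), Hk1 at -0.07 (SE 0.08) and Pfkp at -0.09 (SE 0.10). Hk1, the housekeeping hexokinase, was at 8.91, 9.78 and 10.40 FPKM in the knockouts and 10.06, 10.26 and 10.38 FPKM in the controls, and Pfkp, the platelet-type phosphofructokinase, at 3.70, 3.75 and 2.93 against 3.79, 3.75 and 3.62 FPKM. Tpi1 was at -0.09 (SE 0.09). Over the 6 libraries Tpi1 ranged from 74.90 to 95.07 FPKM, Pgk1 from 68.25 to 80.84 FPKM, Gpi1 from 85.77 to 97.15 FPKM and Pgam1 from 200.06 to 249.79 FPKM. Without knockout 3, the count below 0 was 8 of 16, and 42.9% of all tested genes lay below 0.

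The lower enzyme means were those of Ldha, Pfkl, Aldoc and Pfkm. Ldha, which encodes the muscle-type subunit of lactate dehydrogenase (chromosome 7, 46841475 to 46855627 on the plus strand in GENCODE M21, mm10), had 92.65, 94.36 and 77.69 FPKM in knockouts 1, 2 and 3, against 114.66, 106.76 and 89.88 FPKM in controls 1, 2 and 3. The groups overlapped, since knockouts 1 and 2 lay above control 3. The mean was 88.2 ± 9.17 FPKM in knockout molars and 104 ± 12.7 FPKM in control molars (± SD, n = 3 per genotype), a difference of -0.23 (SE 0.10). Set against its partner Ldhb, which encodes the heart-type subunit, and Ldhc, a ratio that library scaling cannot move, Ldha made up 48.5%, 51.0% and 47.0% of lactate dehydrogenase FPKM in the knockouts and 56.2%, 55.2% and 51.2% in the controls. These shares did not overlap, by a gap between 51.03% in knockout 2 and 51.19% in control 3.

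Pfkl, the liver-type phosphofructokinase, was at 12.26, 13.83 and 11.69 FPKM in the knockouts and 16.78, 15.75 and 12.82 FPKM in the controls. Knockout 2 exceeded control 3, and the difference was -0.24 (SE 0.10). Aldoc had 2.33, 2.51 and 2.5 FPKM in the knockouts against 3.35, 2.88 and 2.73 FPKM in the controls, which do not overlap (-0.21, SE 0.09). Pfkm was at 20.32, 22.63 and 23.13 FPKM in the knockouts and 25.42, 23.76 and 23.60 FPKM in the controls, also without overlap (-0.13, SE 0.07; -0.08 without knockout 1). The highest knockout and the lowest control were close together. Hk2 stood the other way, with 16.31, 18.51 and 15.29 FPKM in the knockouts and 16.18, 14.12 and 13.98 FPKM in the controls, a difference of 0.17 (SE 0.09) with overlap. Eno2 was at 2.74, 2.55 and 2.69 FPKM in the knockouts and 2.05, 2.61 and 2.49 FPKM in the controls (0.12, SE 0.10), with overlap. Over the alternatives tried, Ldha ranged from -0.33 to -0.14, Pfkl from -0.35 to -0.17 and Hk2 from 0.09 to 0.23.

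**Figure D3:**
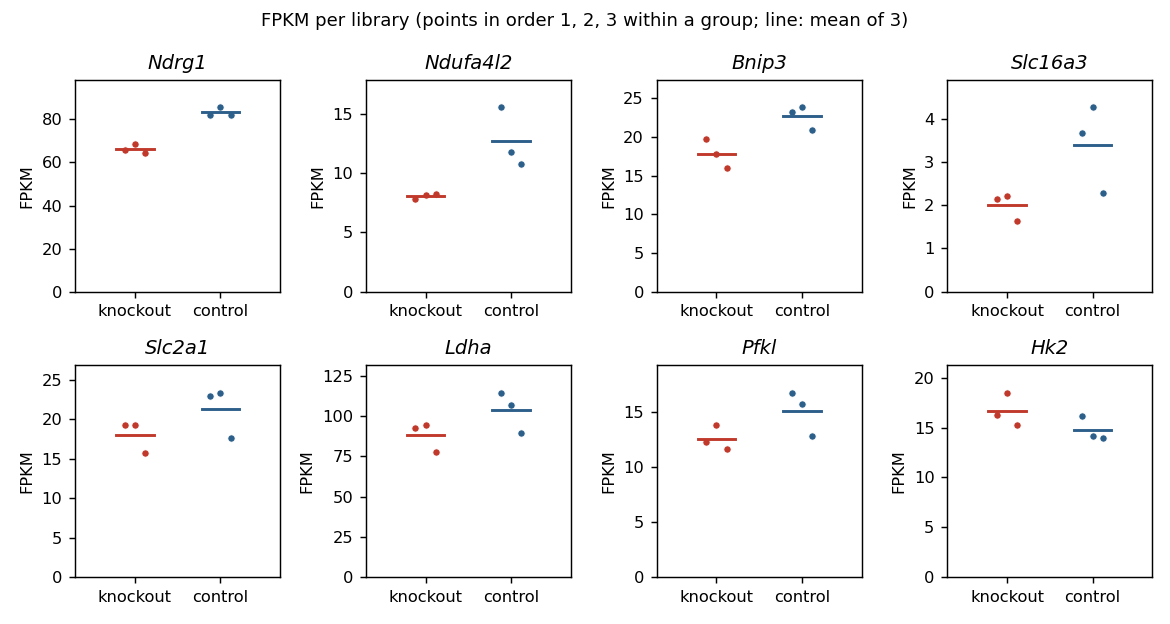
FPKM per library for 8 genes, knockout left in red and control right in blue, points in the order of libraries 1, 2 and 3, lines at group means, axes from 0. The groups are apart for Ndrg1, Ndufa4l2, Bnip3 and Slc16a3 and overlap for Slc2a1, Ldha, Pfkl and Hk2.

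Among the 22 other genes, Ndrg1, Ndufa4l2, Bnip3 and Slc16a3 had the largest differences over their SE, all below 0. Ndrg1, a cytosolic protein induced by low oxygen and by differentiation and needed by myelinating Schwann cells, lies on chromosome 15 from 66929318 to 66969640 on the minus strand (GENCODE M21, mm10). It had 65.94, 68.53 and 64.59 FPKM in knockouts 1, 2 and 3, against 82.29, 85.63 and 82.29 FPKM in controls 1, 2 and 3. Both groups were tight, and the gap between them was wider than the spread within either. The mean was 66.4 ± 2.002 FPKM in knockout molars and 83.4 ± 1.93 FPKM in control molars, a change of the means of -20.4% and a difference of -0.33 (SE 0.06). Leaving out any library, or any other alternative tried, kept it between -0.35 and -0.31. The summed FPKM of 5 Schwann cell markers, a list chosen after the values were seen, was 10.4 to 11.4 in knockout molars and 10.7 to 11.8 in control molars.

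Ndufa4l2, a mitochondrial protein that lowers respiratory activity in low oxygen, had a difference of -0.59 (SE 0.11). It was at 7.80, 8.16 and 8.22 FPKM in the knockouts and 15.59, 11.85 and 10.79 FPKM in the controls. The knockouts were close together, while control 1, the library with oral mucosa keratins, was far above the other controls. Without control 1 the difference was -0.44. Ndufa4l2 is also abundant in pericytes. The summed FPKM of 6 pericyte markers, chosen after the values were seen, was 55.0, 57.9 and 69.6 in knockouts 1, 2 and 3 and 69.2, 66.3 and 71.4 in the controls. In knockouts 1 and 2 this sum lay below the controls, and in knockout 3 within their range. All 6 pericyte markers had differences below 0, and their part in the result was not tested. The gene lies on chromosome 10 from 127514967 to 127517154 on the plus strand.

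Bnip3, a receptor on the outer mitochondrial membrane that targets mitochondria for autophagy, had 19.72, 17.84 and 15.98 FPKM in the knockouts and 23.20, 23.84 and 20.94 FPKM in the controls. The groups did not overlap, although knockout 1 and control 3 were close, and the difference was -0.33 (SE 0.09). The gene lies on chromosome 7 from 138890836 to 138909519 on the minus strand. Its relative Bnip3l, with the same role, was at 29.50, 27.67 and 24.03 FPKM in the knockouts and 27.37, 27.23 and 26.51 FPKM in the controls. The means of Bnip3l were 27.1 and 27.0 FPKM, a difference of -0.003 (SE 0.08).

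The 3 carriers on the list, Slc16a3, Slc2a1 and Slc2a3, had lower means in the knockout. Slc16a3, the MCT4 exporter of lactate, was at 2.14, 2.21 and 1.64 FPKM in the knockouts and 3.67, 4.27 and 2.28 FPKM in the controls. The gap between knockout 2 and control 3 was small, and the difference was -0.53 (SE 0.16). Of the list, Ndufa4l2 and Slc16a3 had the largest differences, and which of them was larger depended on the setting: with a pseudocount of 0.1 they were at -0.64 and -0.71. About 74 to 189 reads per library lie behind Slc16a3 and 135 to 263 behind Ndufa4l2. Slc2a1, the GLUT1 glucose carrier, had 19.27, 19.27 and 15.68 FPKM in the knockouts and 22.92, 23.38 and 17.65 FPKM in the controls. Knockouts 1 and 2 lay above control 3, and the difference was -0.22 (SE 0.11), between -0.35 and -0.13 over the alternatives. Slc2a3, the GLUT3 carrier, was near the limit of 1 FPKM in 3 libraries that a gene had to reach for the fit, at 0.66, 0.97 and 1.01 FPKM in the knockouts and 1.10, 0.92 and 1.46 FPKM in the controls. It met that limit through 1 knockout and 2 controls (-0.20, SE 0.12). Its difference was -0.36 with a pseudocount of 0.1, -0.11 without knockout 1 and -0.10 without control 3. Every other gene of the list was at 1 FPKM or more in all 6 libraries.

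Regulators of the pathway were mixed. Pfkfb3 and Pfkfb4 make the sugar phosphate that activates phosphofructokinase. Pfkfb3 had 3.47, 3.33 and 3.23 FPKM in the knockouts and 4.04, 3.79 and 3.94 FPKM in the controls, without overlap (-0.18, SE 0.08). Its difference was -0.22 with a pseudocount of 0.1. Pfkfb4 had 4.16, 5.25 and 3.89 FPKM in the knockouts and 3.98, 4.08 and 3.38 FPKM in the controls, with overlap (0.17, SE 0.11). Without knockout 2 its difference was 0.06. Pdk1, the kinase that holds pyruvate dehydrogenase inactive, was at 8.32 to 8.69 FPKM in knockout molars and 8.76 to 9.67 FPKM in control molars (-0.10, SE 0.08).

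The oxygen-regulated subunits Hif1a and Epas1 and the hydroxylase Egln1 had close means, and the hydroxylase Egln3 stood higher in the knockout. Hif1a was at 29.18, 28.66 and 25.70 FPKM in the knockouts and 30.56, 28.82 and 27.39 FPKM in the controls, a difference of -0.05 (SE 0.08). Epas1, the alpha subunit prominent in endothelium, was at 18.52, 20.45 and 22.81 FPKM in the knockouts and 21.28, 20.46 and 20.61 FPKM in the controls (-0.02, SE 0.08). Its highest value was in knockout 3, where the sum of 6 endothelial markers was 73.2 FPKM, against 61.5 and 64.7 in knockouts 1 and 2 and 64.1 to 66.9 in the controls. Any part of endothelial content in the Epas1 values was not tested. Egln1, the main oxygen sensor of the family, was at 17.22, 17.62 and 15.68 FPKM in the knockouts and 17.87, 17.21 and 16.45 FPKM in the controls (-0.03, SE 0.08). Egln3, itself a target of the factors, was at 1.75, 1.42 and 1.63 FPKM in the knockouts and 1.36, 1.26 and 1.33 FPKM in the controls. It was the one gene of the list whose knockouts all lay above the controls (0.16, SE 0.10), on 60 to 86 reads per library. With a pseudocount of 0.1 the difference of Egln3 was 0.26.

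Further targets of the factors had small differences. Kdm3a, a histone demethylase, had 11.01, 10.93 and 10.54 FPKM in the knockouts and 12.56, 11.09 and 11.77 FPKM in the controls, without overlap by a small gap (-0.11, SE 0.08). Vegfa, the growth factor for vessels, was at 24.56, 24.49 and 23.44 FPKM in the knockouts and 26.47, 26.41 and 21.57 FPKM in the controls (-0.03, SE 0.09). Ddit4, an inhibitor of mTOR signalling, was the second most abundant of the non-enzymes after Ndrg1, at 38.97, 41.41 and 38.86 FPKM in the knockouts and 39.53, 42.53 and 39.04 FPKM in the controls (-0.02, SE 0.07). Higd1a, a mitochondrial inner membrane protein, and Mxi1, an antagonist of Myc, had differences of -0.03 (SE 0.11) and 0.01 (SE 0.07), on 11.84 to 15.22 FPKM and 19.56 to 22.32 FPKM over the 6 libraries. Car9, an acid-extruding carbonic anhydrase, and Ankrd37 were low, with 1.35 to 1.80 FPKM and 1.34 to 1.69 FPKM over the 6 libraries and differences of 0.04 and -0.01. Adm, a vasodilator peptide, varied more between libraries than between genotypes, with 1.85, 2.20 and 1.23 FPKM in the knockouts and 2.08, 2.68 and 1.02 FPKM in the controls (-0.06, SE 0.20), and its difference ran from -0.30 without control 3 to 0.13 without control 2. Only 22 to 27 reads per library lie behind Ankrd37 and 26 to 65 behind Adm, so counting error alone is large for both.

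**Figure D4:**
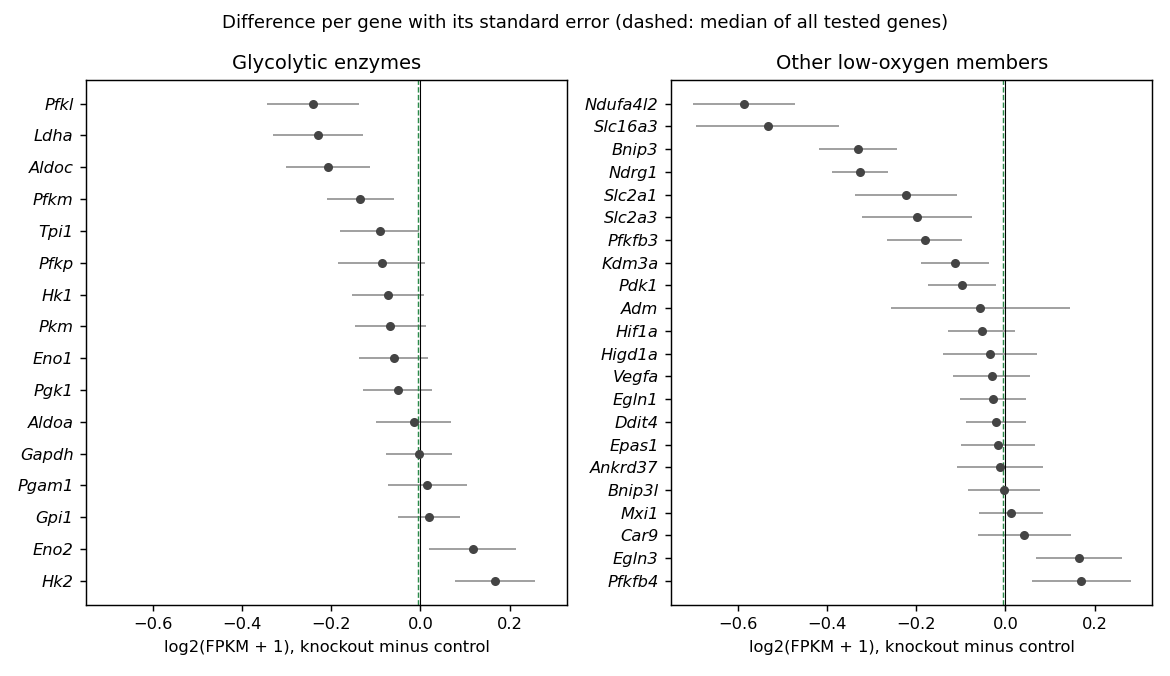
Difference in log2(FPKM + 1), knockout minus control, for each of the 38 genes (points) with its standard error (bars), enzymes left and other genes right. The solid line is 0 and the dashed line the median of all tested genes, -0.005; the points run from -0.59 (Ndufa4l2) to 0.17 (Pfkfb4).

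Counted over the list, 9 of 38 genes had all knockouts below all controls (Ndrg1, Ndufa4l2, Bnip3, Slc16a3, Pfkfb3, Pdk1, Kdm3a, Aldoc and Pfkm) and 1 had all above (Egln3). Over all tested genes the shares were 5.35% and 4.8%, or 10.1% in either direction. Without knockout 3 the groups were apart for 17 of 38 genes (33.2% of all tested genes), and without control 3 for 18 of 38 (24.1%). By limma-trend, 0 of 38 passed an adjusted p of 0.05, where 0.00838% of all tested genes did. At an unadjusted p under 0.05 there were 6 lower (Ndrg1, Ndufa4l2, Bnip3, Slc16a3, Pfkl and Ldha) and 0 higher, where 2.71% and 2.99% of all tested genes lay. In the authors' deposited table a q-value under 0.05 was given to 17 of the 38 genes as lower and 2 as higher, where 24.4% of 16662 genes had one, 14.1% lower and 10.2% higher. Because this comparison brought genes onto the list, nothing is read from these shares. The 22 non-enzymes had 18 differences below 0, a range of -0.59 to 0.17 and a median of -0.04.

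The 6 libraries also differed among themselves in ways that cross the genotypes. In both groups library 3 was the lowest of its group for 12 of 16 enzymes and 13 of 22 other genes, among them Ldha, Tpi1, Pgk1, Eno1, Slc2a1, Bnip3 and Slc16a3. The same held for 40.3% of all tested genes. After median-ratio scaling, in which knockout 3 and control 3 had the smallest factors (0.962 and 0.956, against 1.01 to 1.04 in the other libraries), it held for 4 of 16 enzymes (Ldha, Tpi1, Eno1 and Pgk1) and 6 of 22 other genes, beside 18.9% of all tested genes. In knockout 3 and control 3 Amelx took 35.9% and 35.7% of summed FPKM, and in the others 30.6% to 34.3%. The part of Amelx in this was not tested. The labels give the number on a library as a name only, and tie knockout 3 and control 3 to nothing in common.

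**Figure D5:**
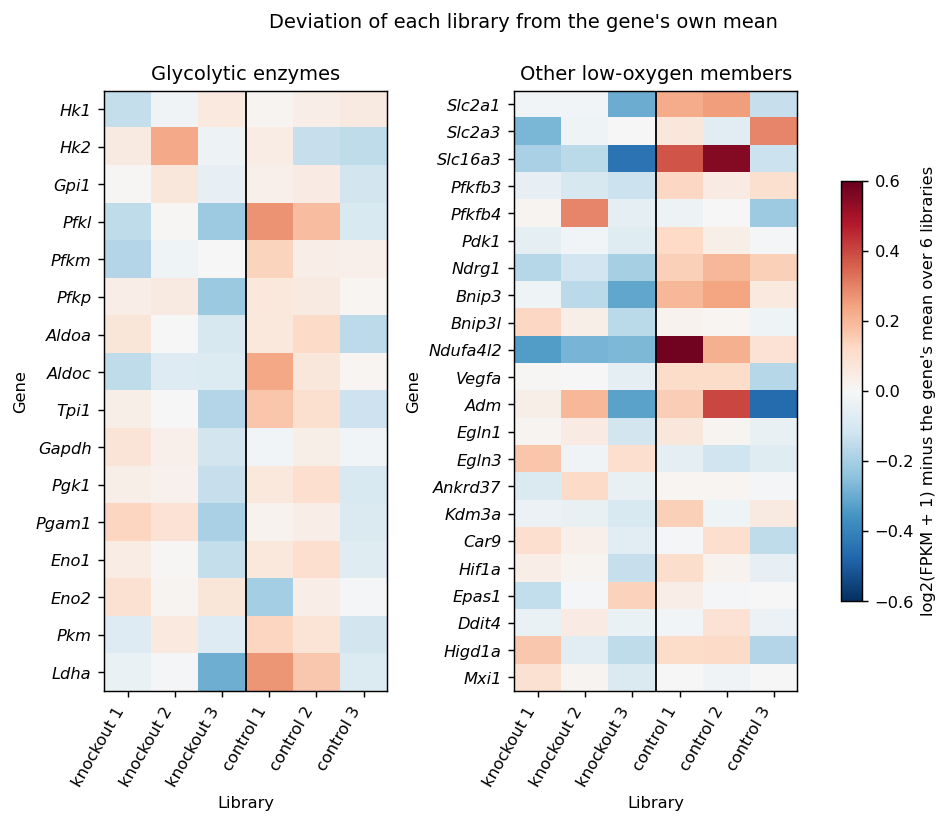
Deviation of log2(FPKM + 1) in each library (columns, knockouts left of the black line) from the gene's mean over 6 libraries (rows), red above and blue below. The row of Ndrg1 is blue in the 3 knockouts and red in the 3 controls, while most enzyme rows are blue in knockout 3 and control 3.

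Other genes of these pathways gave no call. Of 90 tested genes in 7 lists, 0 passed an adjusted p of 0.05 by limma-trend, where 0.00838% of all tested genes did. The lowest adjusted p was 0.639. At an unadjusted p under 0.05 there were 5 lower and 1 higher, where 2.71% and 2.99% of all tested genes lay. Groups lay apart for 11 of the 90 as lower and 1 as higher, beside 5.35% and 4.8% of all tested genes. The oxygen-sensing machinery (13 tested) had a median of -0.01 and 0 calls. Its abundant members Tceb2, an elongin subunit of the ligase that destroys the alpha subunits, and Rbx1, the RING subunit of that ligase, had 153.12 to 187.38 FPKM in knockout molars and 146.14 to 163.82 FPKM in control molars (0.13, SE 0.08), and 33.18 to 38.71 and 32.12 to 34.53 FPKM (0.14, SE 0.08). Ep300, a coactivator of the factors, had the largest difference of that list, -0.18 (SE 0.08, limma adjusted p = 0.876). Arnt, the partner of the alpha subunits, was at 16.50 to 17.27 FPKM in knockout molars and 16.52 to 19.65 FPKM in control molars (-0.07, SE 0.08).

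Of 32 tested further low-oxygen genes, 20 were below 0 and 12 above, with a median of -0.03 and 0 calls. Mif, a cytokine, and Plod2, a lysyl hydroxylase of collagen, were the most abundant, at 122.16 to 145.44 FPKM in knockout molars against 118.38 to 132.47 FPKM in control molars, and at 90.44 to 128.53 against 105.47 to 130.71 FPKM. P4ha1, a prolyl hydroxylase of collagen, had the largest difference: 15.10, 15.31 and 13.41 FPKM in the knockouts and 18.08, 19.96 and 15.28 FPKM in the controls (-0.26, SE 0.10, limma adjusted p = 0.869). Car12, a membrane carbonic anhydrase, had 6.24 to 7.5 FPKM in knockout molars and 7.64 to 8.92 FPKM in control molars (-0.25, SE 0.09, limma adjusted p = 0.858). Hmox1, heme oxygenase, had 15.71 to 17.64 FPKM in knockout molars and 12.56 to 15.58 FPKM in control molars (0.22, SE 0.09, limma adjusted p = 0.869). Car12 and Hmox1 were named after their values were seen.

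Genes of pyruvate use (15 tested) had a median of 0.06, with 6 below 0 and 9 above, and 0 calls. Ldhb was at 87.52 to 98.24 FPKM in knockout molars and 85.66 to 89.47 FPKM in control molars (0.08, SE 0.07), and Pdhb, a subunit of pyruvate dehydrogenase, at 51.98 to 60.80 and 50.98 to 53.20 FPKM (0.14, SE 0.08). Pdk4, another kinase that inactivates pyruvate dehydrogenase, had 3.57, 3.40 and 3.99 FPKM in the knockouts and 4.61, 4.69 and 5.27 FPKM in the controls. Its groups did not overlap, and the difference of -0.33 (SE 0.09) had a limma adjusted p of 0.639. Among further isozymes and carriers (11 tested), the median was -0.03, with 0 calls and a range of -0.10 to 0.08. Bpgm, which makes a phosphoglycerate that loosens oxygen from haemoglobin, was at 19.32 to 21.34 FPKM in knockout molars and 16.67 to 21.86 FPKM in control molars (0.07, SE 0.10), and Slc2a8, a glucose carrier of inner membranes, at 12.26 to 13.01 and 11.34 to 12.63 FPKM (0.08, SE 0.08). Tigar, a phosphatase that slows glycolysis, had the largest difference, -0.10 (SE 0.09, limma adjusted p = 0.909).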

How the data were processed

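The deposited table gives, per the file headers, FPKM per gene and library to 2 decimals, the longest transcript's length, the number of transcripts, and the authors' own log2 ratio, p-value and q-value for case against control. The submitters' processing notes name Bowtie2 and mm10. The sources used here do not say which program made the FPKM, which annotation it used or how the authors tested. Of 17582 rows, 1 carries a transcript accession in place of a gene number and was below the filter.

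Values of log2(FPKM + 1) were fitted by limma-trend (R 4.3.3, limma 3.58.1), with genotype the single term and Benjamini-Hochberg adjustment at 0.05. The fit took the 11934 genes that reached 1 FPKM in 3 libraries, and its script was tested on simulated data. The scale understates changes of low genes. Depth is an estimate: low FPKM values rise in steps of single reads, whose size was read off after taking 30 bases off each transcript's length. At the estimates 79.6% to 85.9% of these values fell within 0.15 of whole reads, a tolerance that random values would meet in 30%. Reads per gene were rebuilt from these and are approximate.

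The genes and lists were chosen with earlier results of these data known. Values in every library are given for the genes with the largest differences over their SE (up to 6 enzymes and 10 others), the 4 most abundant of each, those that pair as isozymes, and Hif1a, Epas1 and Ndrg1. Of each pathway list, the 2 most abundant genes and that with the largest difference are given. Alternatives were a pseudocount of 0.1, no filter, a filter at 5 FPKM, median-ratio scaling, a replicate block, and each library left out. Leaving out knockout 3 and control 3 together was added after seeing the data. Promoter sequences are RefSeq's (GRCm38.p6), and gene positions are GENCODE M21's (mm10). Python 3.11.15, numpy 2.4.6, pandas 2.3.3 and matplotlib 3.10.9 were used.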

Additional observations from a re-analysis of the deposited data

How the results depend on the processing

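No gene of the 38 passed the adjusted threshold under any alternative tried (limma-trend). At an unadjusted p under 0.05, between 4 and 9 were lower. At most 1 was higher, under median-ratio scaling, without knockout 3 and without control 1. Over all genes 333 to 1796 had such a p, counted in both directions together, so this count is not matched to the lower one. The number tested ran from 8373 with a filter at 5 FPKM to 17582 without a filter. The 9 lower came with 877 genes under median-ratio scaling and 1796 without both libraries 3, each of 11934 tested. The count of all genes called was 1 with all libraries. It was 0 without a filter on low values, where 924 genes had an unadjusted p under 0.05, 3 with a filter at 5 FPKM, 1 to 6 with a library left out (6 without knockout 3 and 3 without control 2) and 11 without knockout 3 and control 3. Groups did not overlap for 10 of 38 genes, beside 10.1% of all tested genes, against 6 with a filter at 5 FPKM (27 tested, 9.85% of all), 10 to 18 with a library left out (14.2% to 33.2% of all), and 25 without both libraries 3, where 47.7% of all tested genes did not overlap. The cause of these moves was not tested, but fewer libraries make overlap less likely. The median difference of the enzymes ranged from -0.11 (without control 3) to -0.001 (without knockout 3), and that of the other genes from -0.11 to -0.008. The count of genes below 0, 30 of 38, ranged from 20 without knockout 3 to 33 without control 3, where 42.9% and 62.3% of all tested genes lay below 0, against 51.8% with all libraries. Ndrg1, Ndufa4l2, Bnip3, Slc2a1, Ldha, Pfkl and Hk2 kept their sign in all 12 alternatives, and Slc16a3 in the 11 that tested it. A kept sign was not particular to these genes. Hk1, Pfkm, Tpi1, Eno1, Pkm, Pdk1 and Kdm3a also kept theirs in all 12. Aldoc, Eno2, Slc2a3, Pfkfb3, Pfkfb4 and Egln3 did so in the 11 that tested them. The share of all tested genes that kept their sign was not counted. Without knockout 3, 10 genes changed sign, all among those with small differences. With the replicate block, 8 genes were called in all and 0 of the 38. Deviations from the group means over the tested genes had correlations of -0.0622, 0.17 and 0.388 between same-numbered libraries. Those between libraries of different numbers ran from -0.398 to 0.304. With 3 libraries per group such correlations cannot show whether the numbers pair the samples, and the labels do not say. Depth limits Ankrd37, Adm, Car9, Egln3 and Slc2a3, each with at most 106 reads in any library.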

Other observations

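The pentose phosphate pathway (8 tested genes) had a median difference of 0.009, 2 below 0 and 6 above, and 0 calls by limma-trend. Its most abundant genes Taldo1 and Tkt were at 41.19 to 47.46 FPKM in knockout molars and 39.58 to 47.62 FPKM in control molars, and at 39.53 to 43.86 and 39.02 to 44.54 FPKM. Pgls had its largest difference, 0.09 (SE 0.07). Glycogen genes (10 tested) had a median of -0.04 and 0 calls. Pygb, the brain-type glycogen phosphorylase, was the most abundant, at 22.51 to 24.51 FPKM in knockout molars and 20.30 to 25.23 FPKM in control molars, followed by Gyg, the primer of glycogen, at 13.68 to 16.73 and 14.29 to 14.99 FPKM. Pygl, the liver-type phosphorylase, had the largest difference, -0.26 (SE 0.12, limma adjusted p = 0.874), and groups that did not overlap. Groups lay apart for 3 of the 10 glycogen genes, all lower in the knockout, beside 5.35% lower and 10.1% in either direction of all tested genes. The other two, named after their values were seen, were Ppp1r3c, which targets a phosphatase to glycogen, at 5.88 to 6.56 FPKM in knockout molars and 7.03 to 7.54 FPKM in control molars (-0.22, SE 0.08, limma adjusted p = 0.864), and Pgm2, a phosphoglucomutase, at 7.74 to 8.61 and 8.84 to 10.47 FPKM (-0.17, SE 0.09, limma adjusted p = 0.880). Pygm, the muscle-type phosphorylase, was below the limit of the fit and highest in knockout 3 and control 1, at 1.5 and 1.29 FPKM, the libraries with the most muscle transcript. Of the gluconeogenesis genes only Pck2 and G6pc3 were tested, at 23.31 to 25.91 FPKM in knockout molars against 26.42 to 28.30 FPKM in control molars (-0.14, SE 0.07, limma adjusted p = 0.880), and at 22.64 to 22.99 against 21.06 to 23.13 FPKM. The groups of Pck2 did not overlap. Fbp1, Fbp2, Pck1 and G6pc were at 0.40 FPKM or less in every library.

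The smallest q-value among the 38 genes in the authors' deposited table was 1.14e-65, for Ndrg1, beside a log2 ratio of -0.329. Ndrg1 had been among the genes with the smallest p when the list was selected, so nothing is read from this value. Of 16662 genes in that comparison, 24.4% had a q-value under 0.05. How the authors tested was not found in the labels or the file headers.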
